A study of Mus musculus with 22 samples.

Results

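The genes described here mark mast cells and basophils, the granulated cells of allergic inflammation. Of the 10 genes on the list, 9 were measured by 1 array probe each, among 22180 genes in all: the granule proteases Cpa3, Mcpt8, Gzmb, Prss34 and Tpsb2, the receptor chains Fcer1a and Ms4a2, the histamine-forming enzyme Hdc and the transcription factor Mitf. Il1rl1, the receptor for interleukin-33, was matched to no probe and was not analysed here. For each gene the probe was the one paired with that gene symbol alone, with the highest mean over all arrays.

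The study used wild-type C57BL/6J mouse embryos at E14.5. Fetal liver cells were grown on a stromal layer, OP9-DL1, which was derived from bone marrow and displays the Notch ligand Dll1, and SLAM LSK cells were then sorted as haematopoietic stem cells, so that every group, controls included, had been exposed to the ligand. The 4 groups were DMSO for 4 h (n = 7), GSI at 1 µM for 4 h (n = 7), DMSO for 10 h (n = 4) and GSI at 1 µM for 10 h (n = 4), where GSI is a gamma-secretase inhibitor, which stops the cleavage that frees the active part of Notch, and DMSO is its solvent. Each biological replicate consisted of 1 DMSO and 1 GSI sample and is called a pair below. No group lacked stroma, and the labels do not say how many embryos went into a sample.

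Mast cells and basophils arise from haematopoietic progenitors, and both store proteases and histamine in granules and carry the high-affinity receptor for IgE. GATA2 is needed for both lineages, MITF favours mast cells, and Notch signalling has been linked to mast cell fate through GATA factors and Hes1. Transcripts of Cpa3 and of some other granule genes are also known from early progenitors, so a transcript of this kind in a stem cell sort is not by itself a sign of mature cells.

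The promoters of Cpa3, Mcpt8, Gzmb and Hdc are shown because these 4 genes carried most of the variation described below. Each is the RefSeq sequence of GRCm38.p6, 250 bases that end just before the annotated start of the gene, written 5′ to 3′ on the strand of the gene. Capitals mark GATA, the core letters bound by GATA factors, on either strand (GATA or its reverse complement TATC).

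Cpa3, chr3:20242182-20242431, minus strand: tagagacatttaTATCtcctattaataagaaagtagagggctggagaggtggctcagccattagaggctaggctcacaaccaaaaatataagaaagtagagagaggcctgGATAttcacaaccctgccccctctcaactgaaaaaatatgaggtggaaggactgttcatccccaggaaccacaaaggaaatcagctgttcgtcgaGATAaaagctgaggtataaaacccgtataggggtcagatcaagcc
Mcpt8, chr14:56085198-56085447, minus strand: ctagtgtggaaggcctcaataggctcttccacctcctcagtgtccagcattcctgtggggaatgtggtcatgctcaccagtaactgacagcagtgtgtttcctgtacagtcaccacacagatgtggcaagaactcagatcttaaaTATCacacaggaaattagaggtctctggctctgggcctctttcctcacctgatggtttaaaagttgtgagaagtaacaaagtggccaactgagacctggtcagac
Gzmb, chr14:56262335-56262584, minus strand: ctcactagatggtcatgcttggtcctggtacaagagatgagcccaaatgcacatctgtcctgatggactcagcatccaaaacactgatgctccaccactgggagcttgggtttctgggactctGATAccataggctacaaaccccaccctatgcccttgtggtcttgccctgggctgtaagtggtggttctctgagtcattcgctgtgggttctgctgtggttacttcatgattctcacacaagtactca
Hdc, chr2:126618679-126618928, minus strand: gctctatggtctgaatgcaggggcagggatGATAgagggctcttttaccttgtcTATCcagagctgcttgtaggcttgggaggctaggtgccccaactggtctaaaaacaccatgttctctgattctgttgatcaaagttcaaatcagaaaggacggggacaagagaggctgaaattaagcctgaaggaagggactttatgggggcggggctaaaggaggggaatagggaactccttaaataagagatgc

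The Cpa3 window held 3 matches, at 238, 140 and 45 bases before the start. The Hdc window held 2, at 220 and 196 bases, and the windows of Mcpt8 and Gzmb held 1 each, at 105 and 127 bases. Windows were found for 9 of the 10 genes, 12 windows in all since some genes have several starts, and all 12 held GATA. The same letters occur in 53.6% of the 32851 promoter windows of that length, so a match is common. The E-box CATGTG, of the kind bound by MITF, was searched on both strands and occurred in 2 of the 12 windows (Fcer1a and Prss34) and in 12.3% of all windows. The E-box CACGTG occurred in 0 of the 12 and in 6.02% of all, and the AP-1 motif TGACTCA in 1 of the 12 (Gzmb) and in 4.46% of all. These matches describe letters only.

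Values are log2 expression as deposited. The median of an array lay between 5.03 and 5.12 at 4 h and between 4.45 and 4.52 at 10 h, an offset that bears on every comparison of times. The Notch target Hes1 was lower with GSI by -0.97 ± 0.0884 (log2, estimate ± SE; adjusted p = 2.0e-04, limma) at 4 h and by -1.36 ± 0.117 (adjusted p = 4.7e-05) at 10 h, which checks the treatment labels. Of the markers of the sort, Kit averaged 9.97 ± 0.176 (SD, n = 7) and Procr 9.18 ± 0.381 in DMSO at 4 h, whereas Slamf1, which encodes the SLAM receptor CD150, averaged only 3.98 ± 0.178 there. No level below can be called absent, as detection calls were not analysed here, and in these bulk samples fewer cells of a type and less RNA per cell cannot be told apart.

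Among the proteases, Mcpt8, a protease typical of mouse basophils, varied most between samples. In DMSO at 4 h its log2 level ran from 4.49 to 7.87 with a median of 4.82, and with GSI from 4.43 to 6.68 with a median of 5.03. At 10 h the 4 DMSO samples stood at 6.94, 4.75, 5.63 and 6.47, and the GSI samples of the same pairs at 7.31, 4.80, 5.02 and 4.80. The highest sample of each 4 h group came from pair 7 and the highest of each 10 h group from pair 1, and the DMSO and GSI ranges overlapped at both times. The range within DMSO at 4 h corresponds to 10.4-fold on the linear scale, and the SD of Mcpt8 exceeded that of 99.5% of genes in that group.

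Cpa3 encodes mast cell carboxypeptidase A3. Its level in DMSO at 4 h ran from 4.15 to 5.69 (median 4.52) and with GSI from 4.15 to 5.73 (median 4.29). At 10 h it was 5.02, 4.67, 5.36 and 5.89 in DMSO and 6.28, 4.31, 5.05 and 5.12 with GSI. Pair 7 was again highest in both 4 h groups, with the next GSI sample at 4.56, whereas at 10 h the highest DMSO sample was in pair 4 and the highest GSI sample in pair 1.

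Gzmb encodes granzyme B, a serine protease found in cytotoxic lymphocytes as well as in mast cells. Its level ran from 2.84 to 4.98 (median 3.34) in DMSO at 4 h but only from 3.01 to 3.38 (median 3.27) with GSI. At 10 h the DMSO samples stood at 3.02, 3.08, 3.72 and 4.14, and the GSI samples at 3.16, 2.79, 3.92 and 4.06, so pairs 3 and 4 lay above pairs 1 and 2 in both groups. The wide range in DMSO at 4 h came from pair 7, since the next highest sample was at 3.68.

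The other 2 proteases varied less within each group than Mcpt8. Prss34, a basophil tryptase, ran from 5.15 to 5.72 in DMSO and from 5.26 to 5.81 with GSI at 4 h, and from 4.94 to 5.21 and from 4.89 to 5.47 at 10 h. Tpsb2, a mast cell tryptase, ran from 3.34 to 3.58 in DMSO and from 3.30 to 3.77 with GSI at 4 h, and from 3.15 to 3.39 and from 3.21 to 3.34 at 10 h.

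The receptor chains of the IgE receptor differed in spread. Fcer1a, the IgE-binding alpha chain, kept within 2.62 to 3.03 in DMSO and 2.67 to 2.88 with GSI at 4 h, and within 2.68 to 2.90 and 2.65 to 2.81 at 10 h. Ms4a2, the signal-amplifying beta chain, kept within 3.75 to 4.33 and 3.83 to 4.08 at 4 h, and within 3.64 to 4.37 and 3.72 to 4.09 at 10 h. The SD of Fcer1a in the GSI group at 4 h was larger than that of only 4.27% of genes, whereas the SD of Ms4a2 in DMSO at 10 h was larger than that of 78.7% of genes.

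Hdc makes histamine from histidine. It ran from 5.46 to 7.01 (median 6.29) in DMSO and from 5.69 to 7.24 (median 5.99) with GSI at 4 h. At 10 h its DMSO levels were 6.56, 6.27, 6.24 and 5.95, and its GSI levels 6.53, 5.21, 5.53 and 5.55. The GSI sample was the lower of each pair at 10 h, but the GSI sample of pair 1 lay within the DMSO range.

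Mitf, the basic helix-loop-helix factor of mast cells and melanocytes, ran from 5.47 to 6.19 (median 5.66) in DMSO and from 5.41 to 6.87 (median 5.72) with GSI at 4 h. Pair 3 was the highest of both groups. At 10 h the DMSO levels were 5.04, 5.17, 4.97 and 4.89 and the GSI levels 4.77, 5.31, 5.17 and 5.38.

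**Figure D1:**
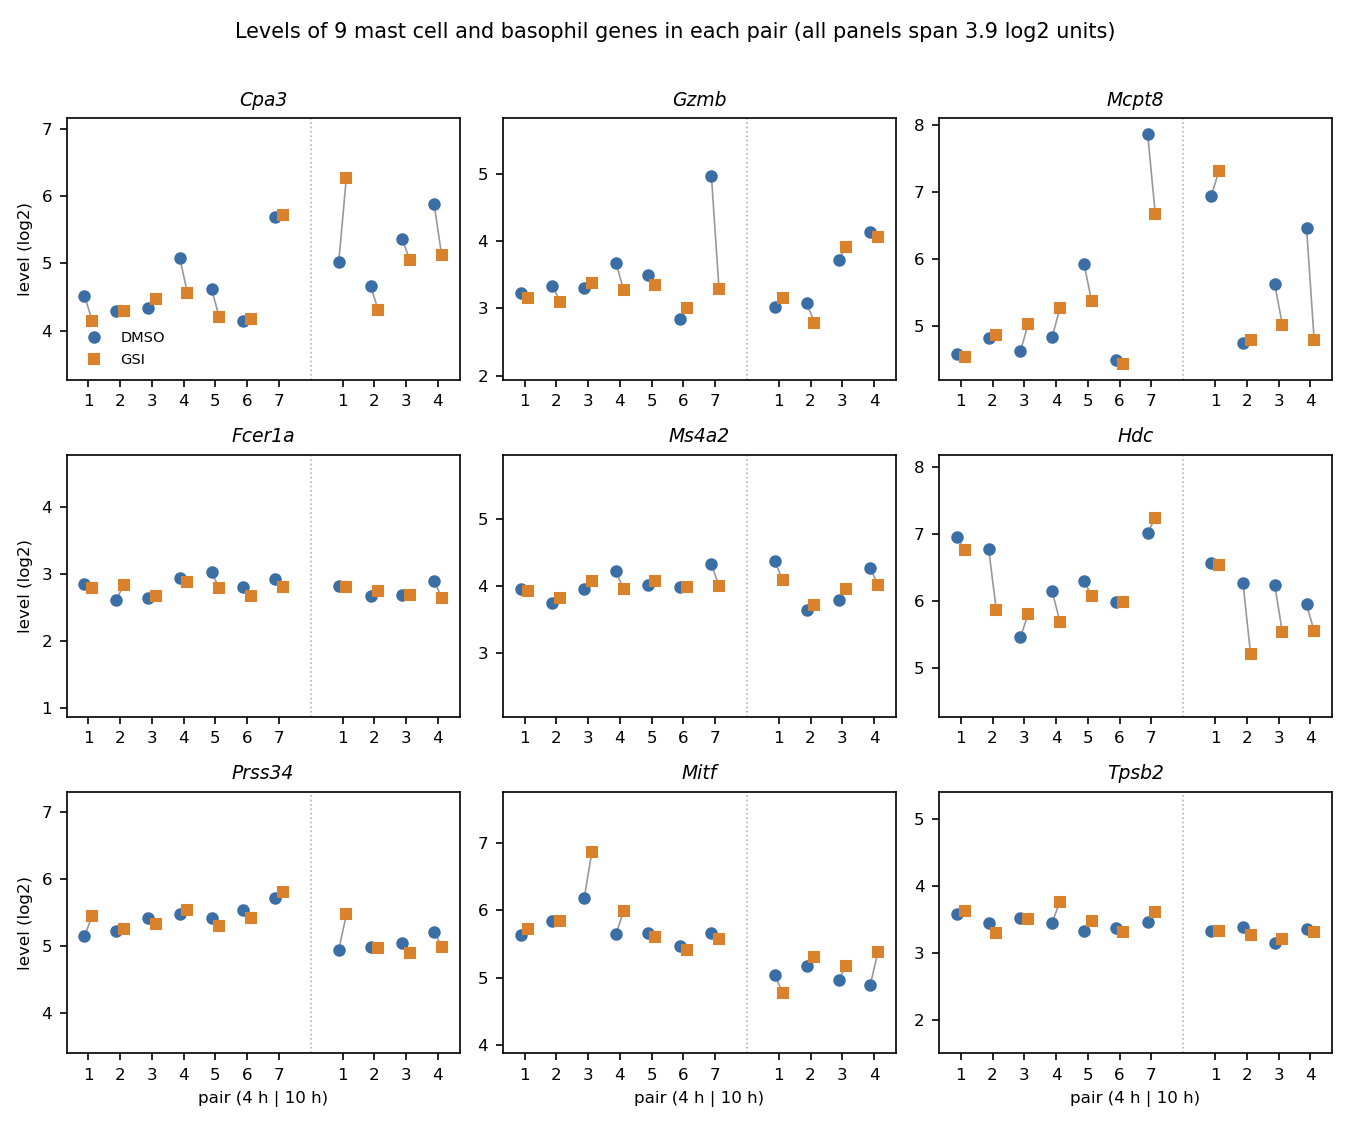
Log2 level (y axis) of each of 9 genes in every sample, by pair number (x axis, 4 h on the left and 10 h on the right of the dotted line). Blue circles are DMSO samples, orange squares GSI samples, and grey lines join a pair. Mcpt8 reaches 7.87 and 6.68 in pair 7 at 4 h and 6.94 and 7.31 in pair 1 at 10 h, while Fcer1a stays between 2.62 and 3.03.

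The first comparison asks whether blocking Notch cleavage altered these genes. None of the 9 passed an adjusted p under 0.05 at 4 h, where 0.00451% of all genes did (1 of 22180, Hes1), and 0 of 9 had an unadjusted p under 0.05, against 934 genes in all (limma). The median difference over the 9 was -0.05 on the log2 scale, with 6 of 9 below 0, beside 0.0085 over all genes. Gzmb gave the largest difference, -0.33 ± 0.160 (adjusted p = 0.999), and was lower with GSI in 5 of 7 pairs. The differences of its pairs were -0.07, -0.24, 0.08, -0.41, -0.16, 0.17 and -1.69, so pair 7 stood apart, and without it the difference was -0.10. Cpa3 differed by -0.16 ± 0.173, Mcpt8 by -0.14 ± 0.211 and Hdc by -0.17 ± 0.140, each lower in 4 of 7 pairs. The 95% confidence interval of the Mcpt8 difference ran from -0.59 to 0.31 and that of Cpa3 from -0.53 to 0.21, so changes within those bounds are not excluded.

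At 10 h, 0 of 9 passed, where 0.667% of all genes did (148 of 22180), and only Hdc had an unadjusted p under 0.05, as did 3122 genes. Hdc differed by -0.55 ± 0.186 between GSI and DMSO (1.47-fold lower) and was lower in 4 of 4 pairs, with differences of -0.03, -1.07, -0.71 and -0.40. Its p was 0.00884 in the limma fit and 0.182 after adjustment over all genes, and over the alternative settings the adjusted p ran from 0.122 to 0.876. Mcpt8 differed by -0.46 ± 0.279 (adjusted p = 0.482) and split by pair, with 0.36, 0.05, -0.61 and -1.67 in pairs 1 to 4. Leaving out pair 4 brought it to -0.06.

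The remaining genes at 10 h differed by little on average. Cpa3 differed by -0.04 ± 0.228, but its pairs ran from -0.77 in pair 4 to 1.26 in pair 1. Gzmb differed by -0.0068 ± 0.212, with an interval from -0.46 to 0.44. Mitf was higher with GSI in 3 of 4 pairs, by 0.14 ± 0.143 on average. Prss34, Fcer1a, Ms4a2 and Tpsb2 differed by between -0.07 and 0.04, and the median over the 9 genes was -0.04, with 7 of 9 below 0, beside -0.01 over all genes.

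The sample descriptions carry codes that form 5 sets, called runs here, whose meaning the labels do not state. At 4 h the difference of Mcpt8 was 0.22 within run 2 (pairs 2 and 3) and -0.35 within run 3 (pairs 4 to 7), and that of Cpa3 was 0.06 and -0.22. At 10 h Mcpt8 differed by 0.21 within run 4 (pairs 1 and 2) and by -1.14 within run 5 (pairs 3 and 4), and Cpa3 by 0.45 and -0.54. Hdc was the only gene among Cpa3, Mcpt8 and Hdc that had the same sign in all 4 runs, at -0.28, -0.11, -0.55 and -0.56.

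**Figure D2:**
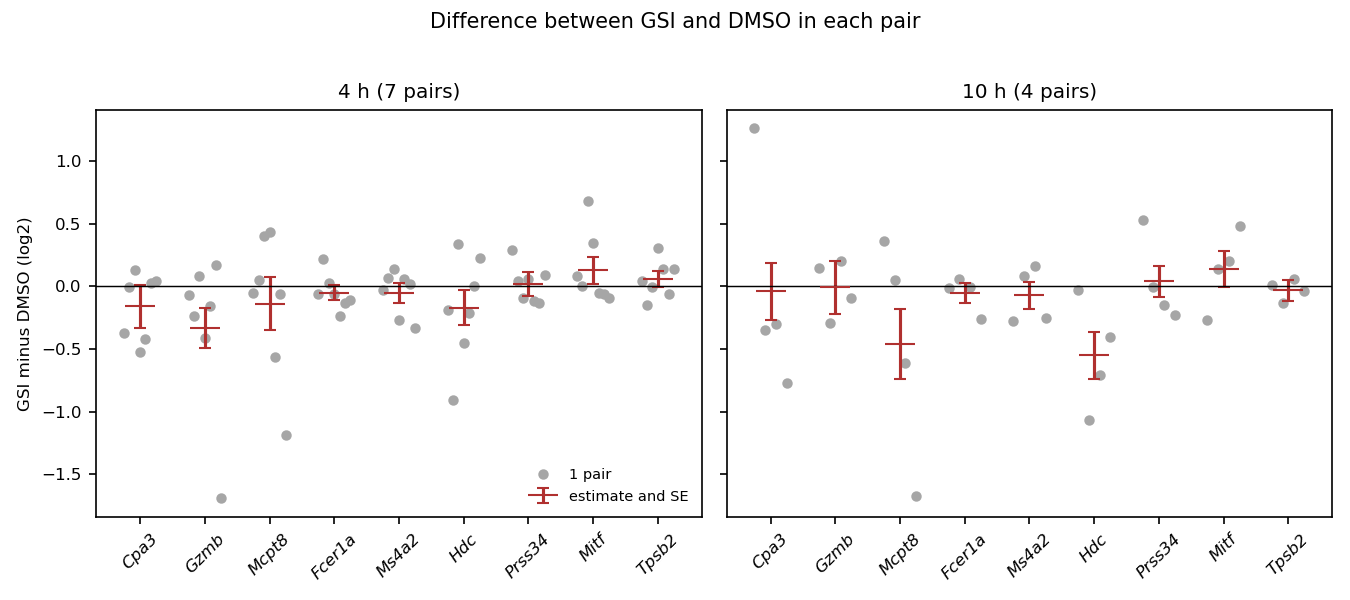
GSI minus DMSO (y axis, log2) for each gene (x axis) at 4 h and 10 h. Grey points are single pairs, and red bars give the fitted difference with its SE. Hdc at 10 h lies at -0.55 with 4 of 4 pairs below 0, and the lowest Gzmb point at 4 h is pair 7 at -1.69.

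Averaged over both times, 0 of 9 genes passed, beside 0.32% of all genes (71 of 22180). Hdc differed by -0.36 ± 0.116 (adjusted p = 0.219, limma), lower in 8 of 11 pairs, and was the only one of the 9 with an unadjusted p under 0.05, beside 2654 genes in all. Mcpt8 differed by -0.30 ± 0.175, lower in 6 of 11 pairs, and Gzmb by -0.17 ± 0.133, lower in 7 of 11. The test of whether the GSI difference itself changed from 4 h to 10 h was passed by 0 of 9 genes and by 0.018% of all (4 of 22180). An unadjusted p under 0.05 in that test was found for 0 of 9 and for 2075 genes. The change for Hdc was -0.39 ± 0.233 (adjusted p = 0.627) and for Gzmb 0.32 ± 0.266 (adjusted p = 0.727).

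Levels also differed between the pairs. An F-test asked whether a level varied between the 7 pairs at 4 h by more than the samples of 1 pair did once the treatment was allowed for. It was passed by 4 of 9 genes, where 25.5% of all genes passed: Mcpt8 (F = 12.3, adjusted p = 4.5e-04), Hdc (F = 8.24, adjusted p = 0.00297), Mitf (F = 6.06, adjusted p = 0.0110) and Cpa3 (F = 5.48, adjusted p = 0.0163). Without pair 7 the F of Mcpt8 was 2.96 (adjusted p = 0.140) and that of Cpa3 0.905 (adjusted p = 0.692), and without pair 3 the F of Mitf was 1.40 (adjusted p = 0.493). Hdc passed under each of the 12 alternatives run, and was high in pairs 1 and 7 in both groups. The test had no term for run. Within run 3 alone (pairs 4 to 7) Mcpt8 (F = 29.6), Cpa3 (F = 26.7) and Hdc (F = 19.1) passed, and Mitf did not (F = 1.72, adjusted p = 0.452).

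At 10 h the same test was passed by 2 of 9 genes, beside 11.9% of all genes. Mcpt8 gave F = 13.0 (adjusted p = 0.00501), which fell to 2.85 (adjusted p = 0.254) without pair 1. Gzmb gave F = 7.05 (adjusted p = 0.0342), with adjusted p of 0.0922 without pair 2, 0.181 without pair 4 and 0.149 with the spread set by time. The F-test had no term for run. Gzmb stood at 2.79 to 3.16 in run 4 (pairs 1 and 2) and at 3.72 to 4.14 in run 5 (pairs 3 and 4). For Gzmb a difference between pairs and a difference between runs therefore cannot be told apart. Cpa3 did not pass with all pairs (F = 5.09, adjusted p = 0.0766) and passed without pair 1 (F = 16.0, adjusted p = 0.00467).

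Markers of several other cell types were high in some of the samples that were high for Mcpt8. Pair 7 at 4 h and pair 1 at 10 h were picked from the levels of these same genes. The counts of the 9 genes in these pairs therefore describe the choice and are no test. In pair 7 at 4 h, 6 of the 9 genes in the DMSO sample and 4 of 9 in the GSI sample exceeded every other sample of the group, as did 8.90% and 10.8% of all genes. Of 10 neutrophil and monocyte markers, 1 of which (Ctsg) is also on the list of granule genes below, 4 did so in the DMSO sample and 7 in the GSI sample. Ctsg, a granule protease of neutrophils and mast cells, stood at 9.16 in that DMSO sample, beside 6.30 to 8.61 in the others, and Mpo, neutrophil myeloperoxidase, at 10.01 beside 7.84 to 9.61. Of 4 erythroid markers 1 and 3 were highest there, and of 8 macrophage markers 0 in either sample. The mean level of the macrophage list was lowest in pair 7, at 5.63 in DMSO and 5.62 with GSI.

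In pair 1 at 10 h, 3 of 9 genes in the DMSO sample and 7 of 9 in the GSI sample were the highest of their group, as were 24.8% and 25.4% of all genes, and so were 6 and 7 of the 10 neutrophil and monocyte markers. Genes of other lists were also the highest of their group, in some lists in 1 sample of the pair only. In the GSI sample these were 5 of 6 melanocyte markers, 5 of 11 OP9 stromal markers and 5 of 11 genes of IgE receptor signalling. In the DMSO sample 0 genes of each of these lists were highest. Of 6 megakaryocyte markers 4 were highest in the DMSO sample and 2 in the GSI sample, and of 8 macrophage markers 3 and 2. The mean of the melanocyte list was 3.96 in the GSI sample, below the array medians at 10 h. The mean of the IgE receptor signalling list was 7.51 in the GSI sample, within the 7.46 to 7.64 of its group. The mean level of the neutrophil and monocyte list ran from 6.64 to 8.56 in DMSO and from 6.53 to 8.45 with GSI at 4 h, and from 7.08 to 8.19 and from 6.81 to 8.05 at 10 h. Its highest DMSO sample was pair 5 at 4 h and pair 2 at 10 h, and its highest GSI samples were pair 7 and pair 1. Of 10 cytotoxic lymphocyte markers, which bear on Gzmb, 0 were highest in either sample of pair 7, and 1 and 5 were highest in the DMSO and GSI samples of pair 1. The part of these other cells in the levels of Mcpt8, Cpa3 and Gzmb was not tested.

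Deviations of most combinations of the 9 genes were positively correlated across samples. Deviations from the group mean were correlated over the 22 arrays as a description, since arrays of a pair share their cells and all genes share the array. Of 36 gene pairs, 30 had a positive Pearson r and 9 an r above 0.5. The share of such pairs among all genes was not computed, so these counts cannot be read as particular to the list. Cpa3 and Mcpt8 had r = 0.81, Cpa3 and Prss34 0.79, Mcpt8 and Prss34 0.70, and Mcpt8 and Ms4a2 0.64, while Hdc and Mitf had -0.46, the lowest.

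Leaving out pair 7 of 4 h and pair 1 of 10 h, a step chosen after seeing the data, left 18 arrays. Cpa3 and Gzmb then had r = 0.90 in place of 0.57, Cpa3 and Ms4a2 0.82 in place of 0.57, and Cpa3 and Mcpt8 0.61. The value for Cpa3 and Prss34 dropped to 0.30, and Hdc no longer ran with Cpa3 (-0.09 in place of 0.55) or Mcpt8 (-0.17 in place of 0.56). Deviations were taken from group means and not within runs, so differences between runs enter all these r values.

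**Figure D3:**
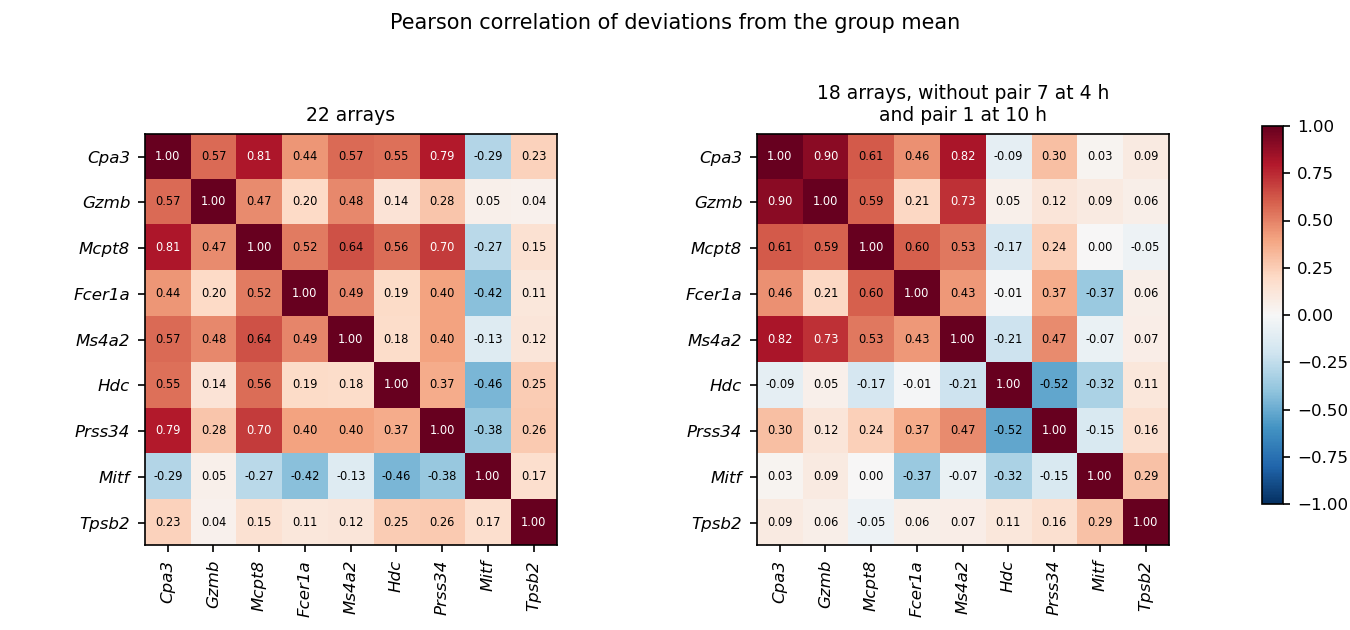
Pearson r between the deviations of each pair of genes (both axes) from their group means, over 22 arrays (left) and over 18 arrays without pair 7 of 4 h and pair 1 of 10 h (right). Red is positive and blue negative. All r among Cpa3, Gzmb, Mcpt8, Ms4a2, Fcer1a and Prss34 are positive in both panels, with Cpa3 and Gzmb at 0.57 and 0.90. Hdc loses its positive values with Cpa3 and Mcpt8.

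Outside the list, the genes whose deviations were most like those of Mcpt8 over the 22 arrays were Car5b (r = 0.85), Fbln5 (0.81), Dixdc1 (0.79), Rgcc (0.78) and Olfr1138 (0.75). For Cpa3 they were Prss50 (0.78), Gm17359 (0.77), 4933401H06Rik (0.75), Dixdc1 (0.74) and Cabp2 (0.73). For Gzmb they were 1700028M03Rik (0.83), Astl (0.76), Ndufaf5 (0.74), Kctd16 (0.73) and 4933401H06Rik (0.72). Without the pairs named above, r fell to 0.17 for Mcpt8 with Fbln5 and was 0.86 for Gzmb with Ndufaf5.

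Of 70 further genes of mast cell and basophil biology, 67 were measured: granule contents, lipid mediator enzymes, IgE receptor signalling, surface receptors, transcription factors and cytokines. At 4 h 0 of the 67 passed the GSI test (limma), and the 3 smallest unadjusted p-values among the transcription factors belonged to Gata2 (0.29 ± 0.0949), Gata3 (0.22 ± 0.0977) and Tfec (0.16 ± 0.104), each with an adjusted p of 0.999. Btk, the kinase downstream of the IgE receptor, had a difference of 0.24 ± 0.0966 with the same adjusted p. Fcer1g, the signalling chain of the IgE receptor, differed by 0.22 and the adaptor Gab2 by 0.19.

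The smallest p-values of the other lists at 4 h also had adjusted p = 0.999. Among granule genes they were those of Ctsg (0.39) and of the chymase genes Mcpt2 (0.10) and Cma1 (0.09). Among lipid mediator enzymes they belonged to Pla2g4a (-0.15), Alox5 (0.24) and Ltc4s (-0.10), which act in turn on the way to leukotrienes. Among receptors they were Cd200r3 (-0.25), Enpp3 (-0.16) and Itga4 (-0.09), and among cytokines Csf1 (0.27), Il6 (0.41) and Tnf (0.19).

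At 10 h 3 of the 67 rose with GSI, or 4.48% of them beside 0.667% of all genes. Among the 11090 genes above the median mean, tested by themselves, 285 passed, and the 67 were not matched to other genes by level. Plcg2, the phospholipase of IgE receptor signalling, rose by 0.68 ± 0.143 (adjusted p = 0.0442), Btk by 0.60 ± 0.128 (adjusted p = 0.0442) and the inhibitory receptor Cd200r1 by 0.78 ± 0.128 (adjusted p = 0.0159). All 3 were higher in 4 of 4 pairs, with pair differences of 0.44 to 1.21, 0.38 to 0.80 and 0.46 to 1.26. At 4 h they were higher in 5, 6 and 2 of 7 pairs. These genes are expressed by many blood cells besides mast cells, and their alternatives were not run. Over all genes, 148 were called in the reported fit and 2 with 10 h arrays only. Of the markers of the sorted stem cells, 8 of 9 had a positive difference in the same comparison (median 0.23), and Hlf (0.73 ± 0.132, adjusted p = 0.0236) and Mecom (0.82 ± 0.172, adjusted p = 0.0436) passed. Their part in the rise of Plcg2, Btk and Cd200r1 was not tested. Over both times Btk passed, at 0.42 (adjusted p = 0.0359).

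The other granule proteases did not pass at 10 h. Mcpt1 differed by -0.48 ± 0.114 (adjusted p = 0.0717) and Mcpt4 by -0.61 ± 0.181 (adjusted p = 0.132), both mast cell chymases. Both lay below the array medians at 10 h, with DMSO and GSI means of 3.40 and 2.92 (Mcpt1) and 3.09 and 2.49 (Mcpt4). Their DMSO levels ran from 3.09 to 3.99 and from 2.68 to 4.08. Cd63, a granule membrane protein, differed by 0.16 ± 0.0516 (adjusted p = 0.154). Alox5ap, needed for leukotriene synthesis, differed by 0.58 ± 0.139 (adjusted p = 0.0719). Gata2 differed by 0.34 ± 0.126 (adjusted p = 0.225), in the same direction as at 4 h, Tfec by 0.32 and Runx1 by 0.21. The adaptor Lcp2 differed by 0.35, the receptors Cd200r3 by 0.51 and Il4ra by 0.28, and the enzymes Ltc4s by -0.16 and Pla2g4a by 0.13. The cytokines Csf1 and Il6 each differed by -0.46 and Tnf by 0.31. None of these passed. The F-test between pairs was passed by 38 of the 67 at 4 h (56.7%, beside 25.5% of all genes) and by 19 of 67 at 10 h (28.4%, beside 11.9% of all genes). Among the 11090 genes above the median mean, tested by themselves, 5223 passed at 4 h and 2884 at 10 h, so brighter genes passed more often. The 67 were not matched to other genes by level, so their shares cannot be read as particular to the list.

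The last comparison set 10 h against 4 h within each treatment. Each run held samples of 1 time only, and the effects of time and of run cannot be told apart. In DMSO 2 of 9 genes were called, both lower, beside 60.2% of all genes (2.09% higher and 58.1% lower). In GSI 3 of 9 were called, all lower, beside 67.2% of all genes (2.12% higher and 65% lower). The median gene itself was lower at 10 h, by -0.41 in DMSO and -0.42 in GSI, and these counts are given beside that offset.

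Mitf was lower at 10 h by -0.71 ± 0.135 in DMSO (adjusted p = 6.6e-04) and by -0.70 ± 0.238 in GSI (adjusted p = 0.0193). Prss34 was lower by -0.38 ± 0.122 (adjusted p = 0.0175) and -0.36 ± 0.137 (adjusted p = 0.0320), and Tpsb2 by -0.23 ± 0.0890 in GSI (adjusted p = 0.0327). None of these lower calls stood when the arrays were brought to a common scale. The median gene then differed by 0.0414 (quantile), -0.000654 (cyclic loess) and 0.252 (median gene of each array at 0) in DMSO and by 0.0265, -0.00678 and 0.265 in GSI, so the last setting leaves most genes higher at 10 h. Mitf then differed by -0.04 (quantile), -0.07 (cyclic loess) and -0.05 (median gene at 0) in DMSO and by -0.04, -0.08 and -0.02 in GSI. Prss34 turned positive on each, by 0.25 to 0.30 in DMSO and 0.26 to 0.32 in GSI, with no call. Tpsb2 differed by 0.14 (quantile) and 0.10 (loess) in DMSO and by 0.11 and 0.09 in GSI, with no call. With the median gene at 0 Tpsb2 was called higher, by 0.51 in DMSO and 0.45 in GSI.

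Cpa3 showed the reverse. As deposited it differed by 0.56 ± 0.289 in DMSO (adjusted p = 0.109) and 0.68 ± 0.350 in GSI (adjusted p = 0.102), above the median gene by 0.97 and 1.10. On the common scales it was called higher at 10 h, by 1.21 (adjusted p = 0.00754), 1.13 (0.0106) and 1.23 (0.00298) in DMSO under the quantile, loess and median settings, and by 1.28 (0.0125), 1.26 (0.0141) and 1.36 (0.00440) in GSI. Ms4a2 differed by -0.01 and -0.03 as deposited and was called higher on each common scale, by 0.38 to 0.65 in DMSO and 0.41 to 0.65 in GSI. Its deposited mean in DMSO was 4.03 at 4 h and 4.02 at 10 h, so these calls arose with the rescaling. On the quantile, loess and median settings, 4155, 3495 and 9314 of all 22180 genes were called higher in DMSO. In GSI the counts were 4226, 3616 and 9904.

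Mcpt8 differed by 0.63 ± 0.604 in DMSO and 0.31 ± 0.495 in GSI, and was called in neither (adjusted p = 0.381 and 0.589). Without the DMSO sample of pair 7 its difference in DMSO was 1.06 (adjusted p = 0.0356) and that of Cpa3 was 0.73 (adjusted p = 0.0178), and without the GSI sample of pair 1 at 10 h the Mcpt8 difference in GSI was -0.30. Gzmb was called higher at 10 h in GSI on the common scales, by 0.58 to 0.94, and in DMSO on none of them. Hdc differed by -0.11 ± 0.272 and -0.50 ± 0.314 as deposited and by 0.55 and 0.14 after quantile normalisation, none of them called. Fcer1a differed by -0.05 and -0.06 as deposited. After quantile and loess normalisation it differed by 0.12 (adjusted p = 0.193) and 0.05 (0.614) in DMSO and by 0.17 (0.0434) and 0.13 (0.123) in GSI. With the median gene at 0 Fcer1a was called higher, by 0.61 in DMSO and 0.63 in GSI.

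Markers of the stroma and liver, among other lists, also shifted between the times in the deposited values. Of 11 OP9 stromal markers 9 were called lower in DMSO and 11 in GSI, beside 58.1% and 65% of all genes, with medians of -1.09 and -1.60. Of 8 hepatocyte markers 7 and 8 were called lower, with medians of -2.78 and -2.74, and no marker of either list had a positive difference. Their mean level at 4 h in DMSO ran from 6.57 to 8.07 (stroma) and 6.63 to 9.92 (hepatocyte), and at 10 h from 5.37 to 6.70 and 5.15 to 6.17. Medians were also low for markers of the sorted stem cells (-1.31 in DMSO and -0.96 in GSI), macrophages (-1.09 and -1.32) and megakaryocytes (-0.95 and -1.10). Those of erythroid (0.16 and 0.10) and eosinophil markers (0.28 and 0.07) were above 0. These lists were not run on the common scales. The part of these cell types in the differences between times was not tested.

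**Figure D4:**
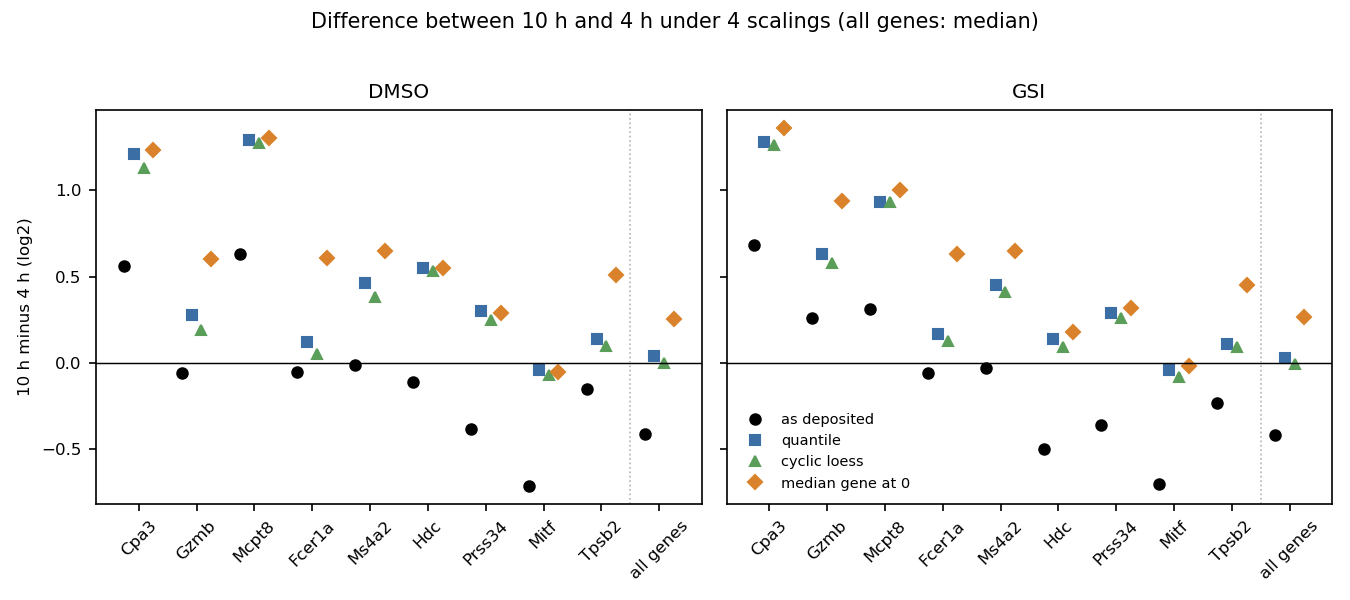
Difference between 10 h and 4 h (y axis, log2) of each gene (x axis) and of the median of all genes, in DMSO (left) and GSI (right), with values as deposited (black circles), quantile normalised (blue squares), cyclic loess normalised (green triangles) and with the median gene of each array at 0 (orange diamonds). Cpa3 moves from 0.56 as deposited to between 1.13 and 1.23 in DMSO, and Mitf from -0.71 to between -0.07 and -0.04.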

How the data were processed

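RNA of 22 samples was hybridised to 1-colour arrays, 1 per sample. The authors deposited log2 expression values, for which the submitters' processing notes name RMA and Partek 6.6. Whether both times were normalised together is not given in the sources used here. Of 41345 probes, 23521 had 1 gene symbol, and the probe with the highest mean was kept per gene, with no filter. Precision is limited by how many arrays each group has.

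Tests used the R package limma (version 3.58.1, under R 4.3.3; lmFit, eBayes with an intensity trend, Benjamini-Hochberg over 22180 genes, adjusted p under 0.05). GSI and DMSO were compared in 1 fit to 22 arrays with the pair as a block, as the design text states pairs. Deviations of paired samples correlated at 0.223 to 0.872 (4 h) and 0.213 to 0.449 (10 h). Pair terms were tested by moderated F-tests, and times within each treatment over 11 arrays.

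On simulated data the fit recovered 98% of genes changed by 1 log2 unit at 4 h and 95% at 10 h. Between times it recovered 77% (DMSO) and 68% (GSI). In each of these simulated comparisons 100 of 22180 genes were changed by that size. The adjusted p depends on how many genes change, and in the data 1 gene passed at 4 h and 148 at 10 h. Genes also differ in spread, with an SE of 0.279 for Mcpt8 at 10 h. The recovered shares are therefore not the chance of finding such a change in a gene of the list. The 10 genes and all lists were chosen with earlier results of these data known. Named were the 10 genes, mast cell and basophil genes passing a GSI test or with the 3 smallest p of their list at 4 h or 10 h, and the 5 genes most like Cpa3, Gzmb and Mcpt8. Other lists and comparisons are given by count, though the rule named genes there too. Alternatives changed the block, spread, trend, scaling, filter, probe choice, run and each replicate.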

Additional observations from a re-analysis of the deposited data

Results flagged for a closer look

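In 54 sets of values (levels per group and pair differences of the 9 genes), 8 (14.8%) had a highest or lowest sample beyond the Dixon limit for its gap to the next. For independent normal values that limit flags about 1 in 20 sets. The sets here share samples, and the share over all genes was not computed. The count therefore cannot be read as particular to these genes. Of the 8, 5 were in pair 7 at 4 h. Mcpt8 reached 7.87 in its DMSO sample, with the next sample at 5.93, and 6.68 in its GSI sample, with the next at 5.37. Cpa3 reached 5.73 in its GSI sample, with the next at 4.56. Gzmb reached 4.98 in its DMSO sample, with the next at 3.68, and the difference between GSI and DMSO in that pair was -1.69, with the next lowest at -0.41. In the GSI sample of pair 1 at 10 h, Mcpt8 stood at 7.31, with the next at 5.02, and Prss34 at 5.47, with the next at 4.99. Mitf stood at 6.87 in the GSI sample of pair 3 at 4 h, with the next at 5.99.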

How the results depend on the processing

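None of the 9 genes was called in a GSI comparison under any alternative run that tested it (17 at 4 h, 14 at 10 h and 18 for each of the mean and the change between times). With no replicate block the count stayed at 0 of 9, while all genes called went from 148 to 0 at 10 h, from 1 to 0 at 4 h, from 71 to 2 for the mean and from 4 to 0 for the change. At 10 h all genes called were 148 (123 higher) as reported, 37 (27 higher) after quantile and 63 (40 higher) after loess normalisation, 285 among the 11090 genes above the median mean (brighter genes), 91 without the trend, 19 with the spread set by time, 2 with 10 h arrays only, 0 within run 4, 15 within run 5 and 27 to 228 without 1 pair. At 4 h 1 gene became 3 with the spread by time, 2 with 4 h arrays only, 148 within run 2 and up to 3 without 1 pair. The mean gave 71 (59 higher), and 43 (30 higher), 51 (33 higher), 162 and 35 under quantile, loess, the filter and the spread by time, and 20 to 136 without 1 pair. The change gave 4, and 0, 2 and 0 under quantile, loess and the spread by time, and 0 to 7 without 1 pair.

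Single GSI differences changed sign within runs: at 4 h within run 2 Cpa3 (0.06), Mcpt8 (0.22), Fcer1a (0.13), Ms4a2 (0.11) and Tpsb2 (-0.08), and at 10 h Cpa3 (0.45), Mcpt8 (0.21) and Mitf (-0.06) within run 4 and Prss34 (-0.19) within run 5. Without pair 1 at 10 h Prss34 went to -0.13 at 10 h, -0.05 for the mean and -0.15 for the change, and the change of Cpa3 to -0.32. Without pair 4 at 10 h Cpa3 went to 0.20 at 10 h and the change of Mcpt8 to 0.08.

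Between times, genes called of the 9 went from 2 to 4 in DMSO and from 3 to 5 in GSI with the median gene at 0, to 4 in DMSO without the sample of pair 7 at 4 h, and to 1 in GSI with run as a random block (correlation 0.147). Leaving out 1 array gave 2 to 4 in DMSO and 1 to 3 in GSI. All genes called were 13348 (464 higher) in DMSO and 14895 (470 higher) in GSI, and 7523 (4155 higher) and 8001 (4226 higher) after quantile, 7129 (3495 higher) and 7693 (3616 higher) after loess, 11695 (9314 higher) and 12301 (9904 higher) with the median gene at 0, and 7142 and 7116 among brighter genes. Signs turned, for quantile, loess and median in that order, for Fcer1a in DMSO (0.12, 0.05, 0.61) and GSI (0.17, 0.13, 0.63), Ms4a2 (0.46, 0.38, 0.65 and 0.45, 0.41, 0.65), Hdc (0.55, 0.53, 0.55 and 0.14, 0.09, 0.18), Prss34 (0.30, 0.25, 0.29 and 0.29, 0.26, 0.32) and Tpsb2 (0.14, 0.10, 0.51 and 0.11, 0.09, 0.45), and for Gzmb in DMSO under quantile (0.28) and median (0.60). Mcpt8 in GSI ran from -0.30 (without pair 1 of 10 h) to 0.56 (without pair 7 of 4 h) with 1 array left out.

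Between pairs at 4 h 4 of 9 became 2 without pair 7, and leaving out 1 pair gave 2 to 4. At 10 h 2 of 9 became 1 with the spread by time and without pair 2 or pair 4, and among brighter genes 1 of the 4 still tested passed, Gzmb being removed by that filter. Leaving out 1 pair at 10 h gave 1 to 3. All genes called between pairs went from 5654 to 2583 without pair 6 at 4 h, and from 2632 to 1303 with the spread by time and 1131 without pair 4 at 10 h. The cause of these changes was not tested.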
